A study of Mus musculus with 76 samples.

Results

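The thymocytes described here are CD4 single positive (SP) and CD8 SP cells that arose in the thymus of mice given Hoxb5-transduced pro/pre-B cells, compared across all genes. The comparison sets the 4 induced CD4 SP libraries against the 4 induced CD8 SP libraries, which are 8 of the 76 libraries of the study, chosen by their labels alone. For both groups, pro/pre-B cells of C57BL/6 bone marrow were transduced in vitro with a virus carrying Hoxb5, a homeodomain factor known from stem cells, sorted, and transplanted into sublethally irradiated recipients. The thymi of these recipients were the source of both SP populations. Each library holds the polyadenylated RNA of 1000 sorted cells. Natural CD4 SP and natural CD8 SP thymocytes of C57BL/6 mice, with 3 libraries each, served as the comparison, and natural means here cells outside the Hoxb5 transplant.

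Some limits of the model bear on every value. Sublethal irradiation leaves host cells alive, and the labels name neither the markers of the sort nor a mark of donor origin. They also do not say that the libraries of a group came from separate animals, so the p-values measure a spread between libraries that may be technical. Ages and times after transplantation were not given in the sources used here. A bulk library does not separate a smaller number of expressing cells from less RNA in each of them.

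Thymocytes that carry both coreceptors are tested by their T cell receptor against self peptides on MHC molecules. Cells with receptors for MHC class II keep CD4 and switch on Zbtb7b (ThPOK), which specifies the helper fate. Cells with receptors for MHC class I keep CD8 and use Runx3, which represses Cd4. Both kinds then gain receptors for egress and for survival cytokines. In the mouse, a CD8-bearing, CD4-negative stage also occurs earlier, between the double negative (DN) and the double positive (DP) stage.

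Levels are given as deposited FPKM, fragments counted per unit of transcript length and of library depth. Read counts were not used here. From the steps between low values, the induced libraries held 4.32 to 5.92 fragments per FPKM and kilobase, so a gene listed at 0 was below about 1 fragment. Induced CD4 SP libraries had a summed FPKM of 745215 to 764857, with 10547 to 10693 genes reaching 1 FPKM. The corresponding ranges in induced CD8 SP libraries were 797165 to 917715 and 10389 to 10441 genes. Differences were tested with limma on log2(FPKM + 1), p-values of the 17416 genes tested were adjusted after Benjamini and Hochberg, and an adjusted p under 0.05 was taken as a change. Rose and fell mean higher and lower in CD4 SP than in CD8 SP, not a change from the DP stage. A log2 fold change is induced CD4 SP over induced CD8 SP on that scale, which understates the change of low genes, and is given with its standard error (SE).

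Hoxb5 itself was detected in all 8 induced libraries and listed at 0 in all 6 natural SP libraries. It had 1.15, 2.35, 1.49 and 1.45 FPKM in induced CD4 SP and 0.595, 0.452, 0.388 and 0.665 FPKM in induced CD8 SP. The groups did not overlap, and Hoxb5 was higher in induced CD4 SP (log2 fold change 0.76 ± 0.16, adjusted p = 0.000505). The call was lost when only the 2 groups entered the fit (adjusted p = 0.123). The deposited values do not separate the transduced copy from the gene of the cell.

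The coreceptors followed the labels. Cd4, the coreceptor for MHC class II, had 70.9, 77.1, 74.8 and 73.7 FPKM in induced CD4 SP, against 3.08, 7.52, 3.76 and 4.51 FPKM in induced CD8 SP (log2 fold change 3.77 ± 0.21, adjusted p = 6.25e-21). Natural CD4 SP libraries had 61.0 to 64.8 FPKM of Cd4 and natural CD8 SP libraries 0.568 to 2.01 FPKM. Cd8a, the alpha chain of the coreceptor for MHC class I, had 16.4, 11.3, 22.2 and 16.8 FPKM in induced CD4 SP, against 334, 326, 288 and 291 FPKM in induced CD8 SP (log2 fold change -4.17 ± 0.30, adjusted p = 5.16e-16). Both genes separated the induced groups without overlap. For Cd8a the induced contrast was smaller than the natural one (difference of the log2 fold changes 3.38 ± 0.46, adjusted p = 1.22e-07), with 0.0998 to 2.68 FPKM in natural CD4 SP and 318 to 379 FPKM in natural CD8 SP. Cd8b1, the beta chain, had 115, 123, 141 and 148 FPKM in induced CD4 SP, against 417, 358, 365 and 347 FPKM in induced CD8 SP (log2 fold change -1.49 ± 0.36, adjusted p = 0.00328). Its groups did not overlap either, but the call was lost with a pseudocount of 0.1 (adjusted p = 0.102) and without induced CD4 SP libraries 1 and 2 together (adjusted p = 0.0662). The 3 genes lie on chromosome 6 of GRCm38, a build other than the one the authors used: Cd8b1 at chr6:71322788-71337494, Cd8a at chr6:71373427-71379173 and Cd4 at chr6:124864692-124888221.

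Of the lineage factors, Zbtb7b passed the test and the others did not. Zbtb7b had 7.96, 2.30, 8.77 and 4.85 FPKM in induced CD4 SP and was listed at 0 in every induced CD8 SP library (adjusted p = 3.73e-10). It was also listed at 0 in the 3 induced DP libraries, and natural CD4 SP libraries, at 21.3 to 30.5 FPKM, lay above every induced one. The contrast differed between induced and natural cells (adjusted p = 0.0104), but not with a pseudocount of 0.1 (adjusted p = 0.89) or with only the groups compared (adjusted p = 0.0764, and 0.0949 with the replicate block besides). That call was also lost without natural CD8 SP library 1 (adjusted p = 0.0508) and without induced CD4 SP libraries 1 and 2 (adjusted p = 0.0568). Gata3, a zinc finger factor needed for CD4 cells, had 46.6 to 69.7 FPKM in induced CD4 SP and 40.9 to 54.8 FPKM in induced CD8 SP (adjusted p = 0.435). Tox, a nuclear factor needed for CD4 cells, had 10.5 to 21.2 FPKM and 6.43 to 15.6 FPKM in the same order (adjusted p = 0.223). Runx3 did not pass, with 6.91 to 11.1 FPKM in induced CD4 SP and 5.01 to 6.96 FPKM in induced CD8 SP (log2 fold change 0.56 ± 0.24, adjusted p = 0.182), while library weights gave an adjusted p of 0.0449 in the direction of induced CD4 SP.

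The starts of genes that carry this contrast can be read beside their levels. For a gene of each side, and for Hspd1 of the chaperone group described further on, a window is printed. It holds the 250 bases before a RefSeq start (GRCm38.p6), 5′ to 3′ on the strand of the gene. Capitals mark TGNGGT and CACGTG, both searched on both strands. TGNGGT takes any base at N and so is wider than the TGTGGT and TGCGGT of Runx factor sites. CACGTG is the E-box of Myc and related factors. RefSeq lists a further start for Zbtb7b and for Hspd1, not shown, whose windows hold 0 matches to either motif.
Zbtb7b, minus strand, chr3:89387672-89387921: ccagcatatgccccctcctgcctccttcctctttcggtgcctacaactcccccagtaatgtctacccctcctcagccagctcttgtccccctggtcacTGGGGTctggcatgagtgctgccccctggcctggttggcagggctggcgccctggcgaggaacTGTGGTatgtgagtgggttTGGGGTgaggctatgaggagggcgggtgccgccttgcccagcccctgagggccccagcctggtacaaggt
Cd8a, plus strand, chr6:71373177-71373426: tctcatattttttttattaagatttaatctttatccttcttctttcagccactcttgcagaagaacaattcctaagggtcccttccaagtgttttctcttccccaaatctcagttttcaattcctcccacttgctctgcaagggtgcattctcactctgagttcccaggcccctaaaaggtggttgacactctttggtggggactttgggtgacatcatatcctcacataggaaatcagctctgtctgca
Hspd1, minus strand, chr1:55088244-55088493: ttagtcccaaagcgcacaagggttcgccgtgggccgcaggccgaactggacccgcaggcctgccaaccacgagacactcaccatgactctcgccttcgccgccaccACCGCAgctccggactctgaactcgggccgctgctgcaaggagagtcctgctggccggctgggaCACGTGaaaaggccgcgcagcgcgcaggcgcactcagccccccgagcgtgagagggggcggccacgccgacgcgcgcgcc
The Zbtb7b window held 3 matches to TGNGGT, the Cd8a window none of either motif, and the Hspd1 window 1 of each, with TGNGGT on the opposite strand. TGNGGT was found for 42.5% of the 11114 tested genes with a promoter in the table, for 46.7% of 600 genes higher in induced CD4 SP and for 37.4% of 380 genes lower there. CACGTG was found for 9.48%, 9% and 12.4% of the same sets. A match describes letters in the window, with any base at N, and no binding.

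**Figure D1:**
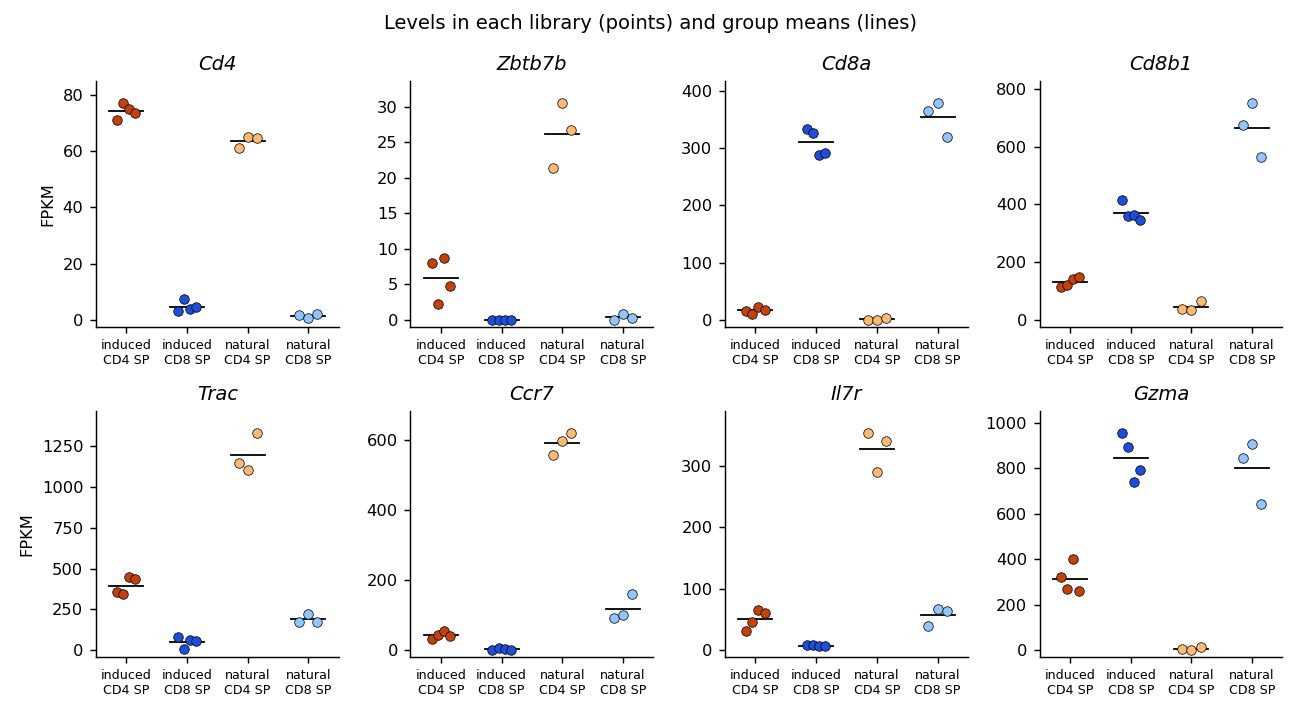
FPKM (vertical axes, linear) of 8 genes in each library (points) with the group mean (line), for induced CD4 SP, induced CD8 SP, natural CD4 SP and natural CD8 SP. Cd4 and Cd8a separate both pairs of groups, Zbtb7b is listed at 0 in induced CD8 SP, and Ccr7 and Il7r are far lower in induced CD4 SP (32.8 to 53.7 and 31.4 to 64.9 FPKM) than in natural CD4 SP (557 to 620 and 290 to 354 FPKM).

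Across all genes, 1312 of 17416 (7.53%) differed between induced CD4 SP and induced CD8 SP. Of these, 813 (4.67%) were higher and 499 (2.87%) lower in induced CD4 SP. The induced counts of each gene list below are to be read against these shares, and a few called members of a small list say little. With every library scaled to an equal total, 1147 were higher and 284 lower, because the summed FPKM differed between the groups. A difference of at least 2-fold was reached by 472 of the higher and 132 of the lower genes. For 2421 of the 17416 genes (13.9%) the libraries of the 2 induced groups did not overlap. Genes named by rank, among them Cd4, Cd8a, Trac, Ccr7, Il4ra, Plac8, Tcrg-C1, Rag2 and Gzma, had to meet that condition. For them the lack of overlap is no further evidence. The same libraries correlated closely: r across genes was 0.953 to 0.958 between induced CD4 SP libraries, 0.968 to 0.974 between induced CD8 SP libraries, and 0.944 to 0.955 between the groups. Between natural CD4 SP and natural CD8 SP libraries r was 0.867 to 0.893. Without induced CD4 SP libraries 1 and 2, which held most immunoglobulin kappa RNA, 859 genes passed, 557 of them higher.

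The genes with the largest rises were led by Myo6, a minus-end directed myosin. It had 24.0, 45.0, 62.7 and 87.5 FPKM in induced CD4 SP, against 0.184, 0.351, 0.362 and 0.696 FPKM in induced CD8 SP (log2 fold change 5.19 ± 0.37, adjusted p = 2.18e-16). Izumo1r, the folate receptor 4 of CD4 and regulatory T cells, had 100, 125, 150 and 128 FPKM in induced CD4 SP and 3.41, 5.64, 8.14 and 3.61 FPKM in induced CD8 SP (log2 fold change 4.40 ± 0.50, adjusted p = 2.22e-09). Each group kept to its own range in both genes, which the rule for these named genes required. Gimap4, a GTPase of lymphocyte survival, had 53.0 to 88.3 FPKM in induced CD4 SP and 0.955 to 3.57 FPKM in induced CD8 SP. Its relative Gimap3 had 3.91 to 15.9 FPKM in induced CD4 SP and 0 to 0.294 FPKM in induced CD8 SP, with the reservation that Gimap genes are alike in sequence. Ckb, the brain creatine kinase, had 12.4 to 19.0 and 0 to 0.274 FPKM in the same order.

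Further genes that rose had various roles. Cd53, a tetraspanin, had 23.8 to 33.2 FPKM in induced CD4 SP and 1.06 to 3.69 FPKM in induced CD8 SP (log2 fold change 3.36 ± 0.26). Btla, an inhibitory receptor, had 9.06 to 18.9 FPKM against 0.142 to 0.635 FPKM. Cish, which restrains cytokine signaling, had 8.83 to 17.5 FPKM against 0.244 to 0.942 FPKM. Samhd1, a nucleotide hydrolase, spanned 9.35 to 27.7 FPKM in induced CD4 SP and 0.227 to 2.60 FPKM in induced CD8 SP. St6gal1, a sialyltransferase, spanned 19.7 to 28.1 and 0.688 to 3.85 FPKM, and the kinase gene Mapk11 9.68 to 12.0 and 0 to 0.399 FPKM. Adjusted p-values of these 6 genes ran from 7.22e-15 for Cd53 to 5.02e-07 for Mapk11.

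Among the genes with the largest falls, Cd8a came first, followed by genes at low levels. Dleu7 had 0 to 0.172 FPKM in induced CD4 SP and 4.24 to 8.29 FPKM in induced CD8 SP. Clec12a, an inhibitory lectin receptor, had 0 to 0.991 FPKM against 4.41 to 8.57 FPKM. Bcat1, the cytosolic aminotransferase of branched-chain amino acids, had 0.0848 to 2.53 FPKM against 9.02 to 14.0 FPKM (log2 fold change -2.51 ± 0.34, adjusted p = 1.91e-07). Plac8 was abundant in both groups, with 31.2, 26.8, 35.5 and 26.9 FPKM in induced CD4 SP and 172, 218, 126 and 125 FPKM in induced CD8 SP (log2 fold change -2.34 ± 0.29, adjusted p = 2.32e-08). Its groups lay far apart, and induced DN4 libraries, the double negative cells before the DP stage, were higher still, at 363 to 528 FPKM. Plac8 was also lower in natural CD4 SP than in natural CD8 SP (log2 fold change -3.25, adjusted p = 1.83e-11). Ybx3, a cold shock domain protein, had 14.1 to 29.2 FPKM in induced CD4 SP and 68.1 to 83.8 FPKM in induced CD8 SP.

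The remaining strong falls included Srm, the spermidine synthase, with 34.5 to 65.0 FPKM in induced CD4 SP and 116 to 219 FPKM in induced CD8 SP (log2 fold change -1.69 ± 0.35). Smyd2, a lysine methyltransferase, had 10.2 to 19.8 FPKM against 48.4 to 65.5 FPKM. Rangrf spanned 6.42 to 24.5 FPKM in induced CD4 SP and 39.2 to 75.7 FPKM in induced CD8 SP, and the zinc finger gene Zfp239 0.193 to 2.03 and 5.26 to 6.93 FPKM. The receptor gene Gfra1 had 1.80 to 3.39 and 8.47 to 12.9 FPKM, and the tetraspanin gene Tspan4 0.566 to 6.23 and 6.46 to 9.49 FPKM. Adjusted p-values of these genes lay between 6.85e-06 for Gfra1 and 0.00232 for Smyd2. Cym passed with all libraries (0 to 3.66 FPKM against 4.47 to 8.15 FPKM, adjusted p = 0.0139), but not without induced CD4 SP library 3 (adjusted p = 0.0822), induced CD4 SP library 4 (adjusted p = 0.0866) or induced CD8 SP library 1 (adjusted p = 0.052).

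**Figure D2:**
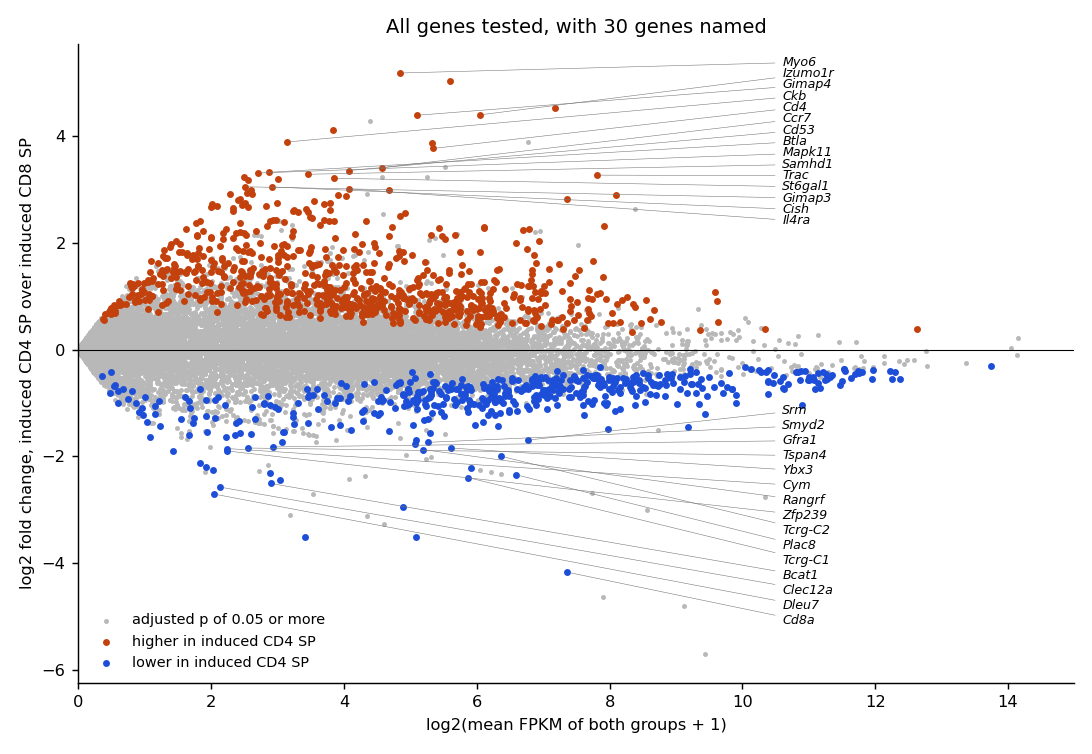
Log2 fold change of induced CD4 SP over induced CD8 SP (vertical axis) against log2 of the mean FPKM of both groups plus 1 (horizontal axis) for each tested gene. Orange points were higher and blue points lower at an adjusted p under 0.05 (813 and 499 genes), and the 30 named genes follow the rule for named genes, which leaves out predicted genes, pseudogenes and receptor segments.

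The rearranged receptor chains divided the groups. Trac, the constant gene of the alpha chain, had 356, 343, 447 and 440 FPKM in induced CD4 SP, against 78.5, 8.89, 61.9 and 55.3 FPKM in induced CD8 SP (log2 fold change 3.27 ± 0.43, adjusted p = 8.02e-08). All induced CD4 SP libraries also lay above the induced DP libraries (90.4 to 128 FPKM), and the induced CD8 SP libraries below them. Trac was also higher in natural CD4 SP than in natural CD8 SP (log2 fold change 2.66, adjusted p = 2.97e-05). The difference between the induced and natural contrasts did not pass (adjusted p = 0.725). Alpha chain V segments showed the same order, with a summed 52.9 to 182 FPKM in induced CD4 SP and 19.0 to 35.8 FPKM in induced CD8 SP, and 3 of 30 tested segments rose (Trav13-1, Trav13-3 and Trav14-1). The beta chain was high in both groups. Trbc1 had 1836 to 2187 FPKM in induced CD4 SP and 1327 to 1919 FPKM in induced CD8 SP (adjusted p = 0.633), and Trbc2 2933 to 3951 and 2666 to 3838 FPKM (adjusted p = 1), although quantile normalization gave an adjusted p of 0.0156 for Trbc1. These genes are near-identical copies whose reads cannot be assigned with certainty.

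Gamma chain RNA was higher in induced CD8 SP. Tcrg-C1, a gamma constant gene, had 13.2, 24.7, 9.86 and 27.6 FPKM in induced CD4 SP and 86.2, 109, 94.2 and 95.7 FPKM in induced CD8 SP (log2 fold change -2.40 ± 0.36, adjusted p = 2.31e-06). The groups did not overlap. Tcrg-C2 had 24.3 to 44.8 FPKM against 115 to 145 FPKM (log2 fold change -2 ± 0.44, adjusted p = 0.00115), and Tcrg-C4 12.7 to 20.9 FPKM against 46.7 to 52.9 FPKM (adjusted p = 0.0118). The calls of Tcrg-C2 and Tcrg-C4 were lost with a pseudocount of 0.1 (adjusted p = 0.0559 and 0.239), and the constant genes are alike in sequence. Gamma V segments summed to 40.9 to 54.8 FPKM in induced CD4 SP and 160 to 209 FPKM in induced CD8 SP, with 3 of 7 tested segments lower. Induced DN4 libraries had 263 to 379 FPKM of Tcrg-C1 and induced DP libraries 5.56 to 9.62 FPKM. In natural cells Tcrg-C1 and Tcrg-C2 were also lower in CD4 SP (log2 fold changes -1.50 and -2.44, adjusted p = 0.0053 and 0.000158). The difference between the induced and natural contrasts did not pass for either (adjusted p = 0.413 and 0.856). Of the 7 gamma V segments, 0 passed in natural cells, and 2 differed between the sources.

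The invariant chains differed little. In the list of the CD3 complex and receptor constant genes, 2 of 11 tested members rose and 3 fell, the 3 gamma constant genes. Cd247, the zeta chain, had 353 to 480 FPKM in induced CD4 SP and 222 to 259 FPKM in induced CD8 SP (log2 fold change 0.81 ± 0.25, adjusted p = 0.0305). The Cd247 call was lost with a pseudocount of 0.1 (adjusted p = 0.443) and without any one of induced CD4 SP libraries 1 and 4 or induced CD8 SP libraries 1, 2 and 4 (adjusted p = 0.0574 to 0.0953). Cd3e, the epsilon chain, had 17.0 to 24.2 FPKM and 11.3 to 19.6 FPKM in the same order (adjusted p = 0.173).

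Genes of the T cell receptor signaling path rose in 13 of 24 cases and fell in none (median log2 fold change 0.62, against 0 over all genes tested). Cd2, an adhesion receptor, had 77.6, 100, 115 and 163 FPKM in induced CD4 SP, against 17.6, 19.8, 28.2 and 21.3 FPKM in induced CD8 SP (log2 fold change 2.31 ± 0.40, adjusted p = 3.34e-05). Fyn, a kinase of the Src family, had 73.4, 81.7, 81.6 and 93.2 FPKM in induced CD4 SP and 19.0, 20.4, 21.0 and 30.4 FPKM in induced CD8 SP (log2 fold change 1.84 ± 0.19, adjusted p = 1.9e-10). Neither gene overlapped between the groups. Prkcq, protein kinase C theta, had 21.2 to 34.7 FPKM against 10.3 to 12.4 FPKM (log2 fold change 1.28 ± 0.23). Txk, a kinase of the Tec family, had 22.1 to 36.6 FPKM against 4.27 to 13.6 FPKM, with a call lost at a pseudocount of 0.1 (adjusted p = 0.123). The other called members included Cd6, Tespa1, Rasgrp1, Lcp2, Cd28, Vav1 and Sla, from 1.22 for Rasgrp1 down to 0.51 for Sla. The kinases Lck and Zap70, which start the signal, did not pass in the fit of all libraries. Lck had 1306 to 1463 FPKM in induced CD4 SP and 944 to 1229 FPKM in induced CD8 SP (adjusted p = 0.188), without overlap, and passed under 5 alternatives (adjusted p = 0.0352 at equal totals, 0.00481 after quantile normalization, 0.0446 with library weights, 0.0272 with only the groups compared and 0.00897 with the replicate block besides). Zap70 had 124 to 178 and 103 to 161 FPKM (adjusted p = 0.634).

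Targets that mark the strength of receptor signaling rose in 10 of 16 tested genes and fell in none (median 1.35). Itm2a had 250, 245, 408 and 245 FPKM in induced CD4 SP, against 34.9, 33.8, 50.5 and 37.4 FPKM in induced CD8 SP (log2 fold change 2.83 ± 0.33, adjusted p = 3.64e-09). Cd5, a negative regulator set by signal strength, had 58.7, 74.7, 77.9 and 72.8 FPKM in induced CD4 SP, against 14.7, 15.8, 20.2 and 12.1 FPKM in induced CD8 SP (log2 fold change 2.12 ± 0.29, adjusted p = 1.8e-07). The ranges of both genes stood apart. The nuclear receptor gene Nr4a1 had 21.8 to 42.8 FPKM against 8.22 to 11.2 FPKM (log2 fold change 1.62 ± 0.40), and Egr1, an early growth response factor, 8.35 to 13.2 FPKM against 1.64 to 4.28 FPKM (1.78 ± 0.43). Nfkbia, the inhibitor of NF-kappa B, had 213 to 316 FPKM in induced CD4 SP and 89.4 to 103 FPKM in induced CD8 SP. Of 16 immediate early and stress genes, 8 rose and none fell (median 0.84), led by Junb (72.2 to 92.3 FPKM against 20.6 to 40.0 FPKM, log2 fold change 1.48 ± 0.31).

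Maturation and egress genes of SP thymocytes rose broadly, with 17 of 28 higher and none lower (median 1.29). Ccr7, the receptor that brings SP cells to the medulla, had 32.8, 42.4, 53.7 and 40.0 FPKM in induced CD4 SP, against 1.95, 7.62, 2.98 and 1.53 FPKM in induced CD8 SP (log2 fold change 3.41 ± 0.42, adjusted p = 1.3e-08). Il7r, the alpha chain of the interleukin 7 receptor, had 31.4, 45.9, 64.9 and 61.1 FPKM in induced CD4 SP, against 7.68, 7.77, 7.41 and 6.92 FPKM in induced CD8 SP (log2 fold change 2.56 ± 0.22, adjusted p = 4.9e-13). Induced CD4 SP stood above induced CD8 SP in every library for both. Cd52, a small surface glycoprotein, had 427 to 526 FPKM against 46.7 to 105 FPKM (log2 fold change 2.89 ± 0.30). Ccr9, which draws progenitors and young thymocytes within the thymus, had 164 to 201 FPKM against 32.6 to 42.1 FPKM (2.26 ± 0.28), and Foxo1, a factor upstream of egress genes, 19.9 to 28.8 FPKM against 8.55 to 12.0 FPKM (1.25 ± 0.17). Cd69, which retains cells in the thymus, had 47.8 to 70.5 FPKM against 14.8 to 43.1 FPKM (1.32 ± 0.32).

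The egress receptor S1pr1 was uneven. It had 10.2, 8.41, 0.754 and 12.6 FPKM in induced CD4 SP, against 0.464, 1.90, 1.74 and 0.273 FPKM in induced CD8 SP (log2 fold change 1.85 ± 0.37, adjusted p = 0.000349). Induced CD4 SP library 3 lay within the range of induced CD8 SP, and without libraries 1 and 2 the S1pr1 call was lost (adjusted p = 0.0775). Klf2, the factor that drives S1pr1, had 20.2 to 36.1 FPKM against 8.42 to 18.5 FPKM and did not pass (adjusted p = 0.0775 in the fit of all libraries). Its groups did not overlap, and it passed at equal totals (adjusted p = 0.0292), with library weights (0.0202), with only the groups compared (0.0114) and with the replicate block besides (0.00525). Ly6c2, a marker of mature cells, had 0 to 1.77 FPKM in induced CD4 SP and 1.75 to 6.46 FPKM in induced CD8 SP (adjusted p = 0.0821), against 95.8 to 323 and 252 to 359 FPKM in natural CD4 SP and natural CD8 SP.

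Cytokine receptor genes rose in 8 of 20 cases and fell in none (median 0.45). Il4ra, the alpha chain of the interleukin 4 receptor, had 34.2, 34.5, 19.9 and 27.4 FPKM in induced CD4 SP, against 2.19, 3.34, 3.01 and 2.13 FPKM in induced CD8 SP (log2 fold change 3.01 ± 0.29, adjusted p = 7.79e-12). Il2rg, the common gamma chain, had 370 to 388 FPKM against 182 to 235 FPKM (0.93 ± 0.15, adjusted p = 1.12e-05), and Tgfbr2, a receptor of TGF-beta, 9.79 to 13.5 FPKM against 2.85 to 4.87 FPKM (1.57 ± 0.21, adjusted p = 7.81e-08). None of these 3 genes overlapped between groups, which the rule for genes named by rank required of Il4ra. Ifngr1, a receptor chain of interferon gamma, had 337, 213, 408 and 363 FPKM in induced CD4 SP, against 168, 42.4, 141 and 233 FPKM in induced CD8 SP (1.37 ± 0.28, adjusted p = 0.000469), and its groups overlapped. That call was lost when only the 2 groups entered the fit (adjusted p = 0.137).

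Survival, interferon and MHC class I genes moved in smaller numbers, beside shares over all genes of 4.67% higher and 2.87% lower. Of 13 tested genes of the Bcl2 family, 2 rose and none fell (median 0.39), the survival genes Bcl2 (6.74 to 10.8 FPKM against 1.88 to 4.40 FPKM, log2 fold change 1.39 ± 0.24) and Mcl1 (72.7 to 97.1 FPKM against 42.4 to 59.4 FPKM, 0.79 ± 0.16). Of 22 interferon response genes, 7 rose and none fell (median 0.86). Zbp1, a sensor of nucleic acids, had 63.2, 26.8, 71.0 and 23.2 FPKM in induced CD4 SP, against 12.8, 13.0, 10.3 and 8.01 FPKM in induced CD8 SP (1.83 ± 0.43, adjusted p = 0.00288). Induced CD4 SP libraries 1 and 3 were the higher ones, and all 4 lay above induced CD8 SP. Oasl2, a protein of the oligoadenylate synthetase family, had 1.73 to 12.2 FPKM against 0 to 2.19 FPKM (1.94 ± 0.46), and its groups overlapped. Irf7, a factor of the interferon loop, had 9.67 to 26.9 FPKM against 5.01 to 7.24 FPKM (adjusted p = 0.0152), and lost its call without induced CD4 SP library 1 (adjusted p = 0.0806). Of 15 MHC class I genes, 5 rose and none fell (median 0.45). H2-K1, a classical heavy chain, had 375 to 612 FPKM against 201 to 315 FPKM (0.94 ± 0.14), and Nlrc5, the transactivator of class I genes, 9.53 to 31.4 FPKM against 4.91 to 13.3 FPKM (1.25 ± 0.31, adjusted p = 0.107 without induced CD4 SP libraries 1 and 2).

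**Figure D3:**
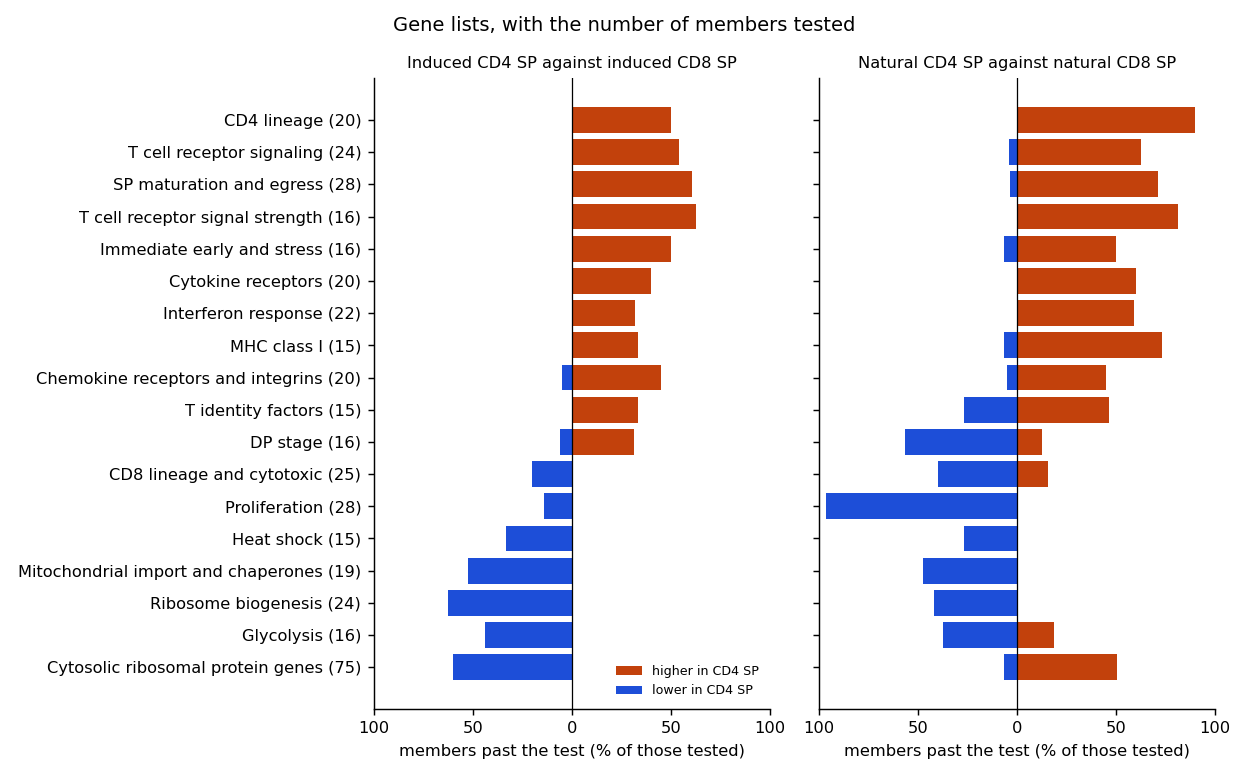
Percent of the tested members of 18 gene lists that were higher (orange, to the right) or lower (blue, to the left) in CD4 SP at an adjusted p under 0.05, for induced cells (left panel) and natural cells (right panel), with the number of members tested in parentheses. In induced cells 17 of 28 maturation genes were higher and 15 of 24 ribosome biogenesis genes lower, and over all genes the shares were 4.67% and 2.87%. The last 4 lists were chosen after values were seen.

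The CD4 lineage list rose in 10 of 20 cases and fell in none (median 0.98), and in natural cells 18 of 20 rose. Beside Cd4, Zbtb7b, Cd5, Il4ra and Izumo1r, Cd40lg, the helper ligand for CD40, had 4.21, 3.03, 14.4 and 11.9 FPKM in induced CD4 SP, against 0, 0, 0.783 and 0 FPKM in induced CD8 SP (log2 fold change 2.80 ± 0.33, adjusted p = 7.07e-09). Icos, a costimulatory receptor, had 7.22 to 18.5 FPKM against 0.866 to 1.64 FPKM (2.41 ± 0.40), and Tnfrsf4 (OX40) 9.75 to 38.3 FPKM against 0.480 to 7.42 FPKM (2.41 ± 0.56). All 4 induced CD4 SP libraries lay above all 4 induced CD8 SP libraries in these 3 genes. Il6ra, a chain of the interleukin 6 receptor, had 0.522 to 3.16 FPKM in induced CD4 SP and was listed at 0 in induced CD8 SP (adjusted p = 0.00987, and 0.0983 without induced CD4 SP library 4). Ccr4 was listed at 0 in induced CD4 SP library 1 and had 1.33 to 2.54 FPKM in the other 3, against 0 to 0.149 FPKM (adjusted p = 0.0103). Without induced CD4 SP library 2 or 4 the Ccr4 call was lost (adjusted p = 0.0877 and 0.0531).

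Of 25 genes of the CD8 lineage and of cytotoxic cells, 5 fell and none rose (median -0.19). Beside Cd8a and Cd8b1, Gzma, a granzyme, had 323, 270, 401 and 261 FPKM in induced CD4 SP, against 956, 895, 742 and 793 FPKM in induced CD8 SP (log2 fold change -1.44 ± 0.38, adjusted p = 0.00883). The groups did not overlap, and without induced CD4 SP libraries 1 and 2 the adjusted p was 0.0855. Induced DN4 libraries had more Gzma than either group, 1165 to 1712 FPKM, and induced DP libraries 210 to 259 FPKM. Natural DN4 libraries had 1829 to 2072 FPKM of it. Cst7, cystatin F, had 0.248 FPKM in 1 induced CD4 SP library and 0 in 3, against 4.52, 1.54, 1.58 and 5.60 FPKM in induced CD8 SP (-1.89 ± 0.44, adjusted p = 0.0025). Itgae, the alpha chain of CD103, passed at low levels (0 to 0.491 FPKM against 0.331 to 2.27 FPKM, adjusted p = 0.0321), but not in 6 of the 8 fits that left out 1 library (adjusted p = 0.076 to 0.12; only without induced CD4 SP library 2 or induced CD8 SP library 1 did it pass). Nkg7, of cytotoxic granules, had 1.92 to 14.8 FPKM against 5.54 to 12.9 FPKM (adjusted p = 0.573). Klrd1 was listed at 0 in all induced CD4 SP and 2 induced CD8 SP libraries, with 0.771 and 4.73 FPKM in the others, while natural CD8 SP libraries had 96.7 to 103 FPKM.

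Genes of regulatory T cells rose in 2 of 10 cases and fell in none (median -0.01), against 4.67% higher and 2.87% lower over all genes. The 2 were Tnfrsf4 and Tnfrsf18 (GITR), which had 59.6 to 105 FPKM in induced CD4 SP and 25.7 to 29.7 FPKM in induced CD8 SP (log2 fold change 1.43 ± 0.35, adjusted p = 0.0038, and 0.112 without induced CD4 SP libraries 1 and 2). Foxp3, their lineage factor, had 1.24 FPKM in 1 induced CD4 SP library and 0 in 3, and 0 to 0.101 FPKM in induced CD8 SP, against 7.58 to 13.2 FPKM in natural CD4 SP. Of 13 tested helper effector genes, 1 rose and none fell, the chemokine receptor gene Ccr8 (2.51 to 16.1 FPKM in induced CD4 SP, 0 to 0.415 FPKM in induced CD8 SP, 3.00 ± 0.31, adjusted p = 1.85e-10). Of 16 natural killer and innate genes, 2 rose, Sox13 and Id2. Id2, an inhibitor of E proteins, had 38.4, 45.1, 52.7 and 55.3 FPKM in induced CD4 SP, against 6.74, 7.36, 9.02 and 7.19 FPKM in induced CD8 SP (2.50 ± 0.34, adjusted p = 1.79e-07). The T cell factors Satb1 (874 to 1149 against 450 to 595 FPKM, 1.08 ± 0.19) and Bcl11b (150 to 200 against 62.6 to 111 FPKM, 1.06 ± 0.17) rose too, in a list of T identity factors with 5 of 15 higher and none lower (median 0.42). Lef1 rose in that list (55.5 to 77.9 against 16.6 to 47.5 FPKM, adjusted p = 0.00527), but not without induced CD8 SP library 2 (adjusted p = 0.0895).

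Genes of biosynthesis were lower in induced CD4 SP. In ribosome biogenesis, 15 of 24 genes fell and none rose (median -0.84). Npm1, a nucleolar chaperone, had 1279, 1256, 1329 and 1140 FPKM in induced CD4 SP, against 2711, 2478, 2656 and 2400 FPKM in induced CD8 SP (log2 fold change -1.03 ± 0.11, adjusted p = 1.18e-10). Fbl, the rRNA methyltransferase fibrillarin, had 52.0 to 79.4 FPKM against 132 to 175 FPKM (-1.12 ± 0.19, adjusted p = 2.04e-05). Both genes stood apart between the groups. The genes of mitochondrial import and chaperones fell in 10 of 19 tested cases and rose in none (median -0.57). Hspd1, the mitochondrial chaperonin whose start is printed above, had 37.2, 45.9, 39.9 and 44.9 FPKM in induced CD4 SP, against 102, 104, 109 and 145 FPKM in induced CD8 SP (-1.42 ± 0.18, adjusted p = 4.24e-08). Its partner Hspe1 had 131 to 221 FPKM against 280 to 481 FPKM (-1.15 ± 0.19), and Hspa9, the mitochondrial Hsp70, 27.9 to 38.2 FPKM against 82.8 to 102 FPKM (-1.42 ± 0.19). Of 15 heat shock genes 5 fell and none rose (median -0.39): Hspd1, Hspe1, the cytosolic Hsp90 genes Hsp90aa1 and Hsp90ab1, and Hspa1b, whose copy Hspa1a is nearly identical.

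Glycolysis genes fell in 7 of 16 cases and rose in none (median -0.52). Ldha, lactate dehydrogenase A, had 716, 685, 621 and 692 FPKM in induced CD4 SP, against 1146, 1166, 1233 and 1383 FPKM in induced CD8 SP (log2 fold change -0.86 ± 0.14, adjusted p = 7.53e-06), without overlap. Hk2, hexokinase 2, had 1.95 to 4.43 FPKM against 6.98 to 16.4 FPKM (adjusted p = 0.0334), a call lost in 6 of the 8 fits that left out 1 library (adjusted p = 0.0592 to 0.122; it held only without induced CD4 SP library 4 or induced CD8 SP library 3). Cytosolic ribosomal protein genes fell in 45 of 75 cases and rose in none (median -0.41), from -0.83 for Rpl36a to -0.32 for Rpl6. Their count depended on scaling, with 25 lower at equal totals (median -0.26), 10 lower and 1 higher after quantile normalization (median -0.09) and 54 lower with median ratios (median -0.45). Retroposed copies of these genes share reads with them. The lists of ribosome biogenesis, mitochondrial import, glycolysis and ribosomal proteins were chosen after values were seen.

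Replication genes of the Mcm helicase fell, and other proliferation genes did not pass. Of 28 proliferation genes, 4 fell and none rose (median -0.26). Mcm6 had 234, 258, 269 and 285 FPKM in induced CD4 SP, against 439, 401, 442 and 483 FPKM in induced CD8 SP (log2 fold change -0.75 ± 0.13, adjusted p = 6.21e-05). Mcm2 (130 to 168 against 203 to 269 FPKM), Mcm5 (234 to 309 against 366 to 424 FPKM) and Mcm7 (156 to 195 against 243 to 333 FPKM) also stood apart between groups, with adjusted p-values of 0.00125 to 0.00691. At equal totals the calls of Mcm5 and Mcm7 were lost (adjusted p = 0.117 and 0.0606), and after quantile normalization as well (adjusted p = 0.0839 and 0.0826). Without induced CD4 SP libraries 1 and 2 the adjusted p was 0.0664 for Mcm2 and 0.135 for Mcm5. Mki67, a marker of cycling cells, had 58.6 to 93.4 FPKM in induced CD4 SP and 54.5 to 77.2 FPKM in induced CD8 SP (adjusted p = 1). Gas5, a noncoding RNA that hosts snoRNAs, had 422 to 579 FPKM against 756 to 1275 FPKM (-0.86 ± 0.15, adjusted p = 6.54e-05). The nuclear RNAs Malat1 (146 to 192 against 46.2 to 75 FPKM, adjusted p = 0.0117, and 0.0693 without induced CD4 SP libraries 1 and 2) and Neat1 (7.95 to 16.6 against 1.72 to 5.34 FPKM, adjusted p = 0.000143) went the other way.

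Mitochondrially encoded transcripts fell in 2 of 13 cases and rose in none (median -0.22), against 2.87% lower and 4.67% higher over all genes. mt-Nd3 had 274, 375, 322 and 726 FPKM in induced CD4 SP, against 547, 891, 990 and 1411 FPKM in induced CD8 SP (log2 fold change -1.20 ± 0.30, adjusted p = 0.0055). mt-Nd1 had 2992, 3531, 3926 and 5413 FPKM in induced CD4 SP, against 4288, 5449, 5889 and 7453 FPKM in induced CD8 SP (adjusted p = 0.0317). The groups overlapped in both genes, which encode subunits of complex I. The mt-Nd3 call was lost without induced CD8 SP library 4 (adjusted p = 0.051), with only the groups compared (0.0519) and without induced CD4 SP libraries 1 and 2 (0.185), and the mt-Nd1 call without any one of induced CD4 SP libraries 1, 2 and 3 or induced CD8 SP libraries 2, 3 and 4 (adjusted p = 0.0545 to 0.201). The mt-Nd1 call was also lost at equal totals (adjusted p = 0.186), after quantile normalization (0.41) and with only the groups compared (0.0731), and 1 of the 13 genes was lower at equal totals and after quantile normalization (medians -0.07 and -0.02).

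Recombination and DP stage genes were detected in both groups. Of 16 DP stage genes, 5 rose and 1 fell (median 0.55). Rag2, of the V(D)J recombinase, had 112, 74.0, 113 and 89.8 FPKM in induced CD4 SP, against 46.0, 34.2, 42.5 and 35.2 FPKM in induced CD8 SP (log2 fold change 1.27 ± 0.36, adjusted p = 0.0153), without overlap. Its partner Rag1 had 65.1 to 101 FPKM against 31.6 to 50.4 FPKM (1.00 ± 0.27, adjusted p = 0.0103). A pseudocount of 0.1 ended both calls (adjusted p = 0.186 for Rag2 and 0.104 for Rag1). So did leaving out induced CD4 SP library 1 or induced CD8 SP library 2 for Rag2 (adjusted p = 0.0535 and 0.0512) and induced CD4 SP library 4 for Rag1 (adjusted p = 0.0516). Dntt, which adds bases at V(D)J junctions, had 1036 to 1369 FPKM in induced CD4 SP and 1015 to 1135 FPKM in induced CD8 SP (adjusted p = 0.652). Rmnd5a fell (29.1 to 33.9 against 41.8 to 55.1 FPKM, adjusted p = 0.0139), but not at equal totals (adjusted p = 0.119) or without induced CD8 SP library 4 (adjusted p = 0.06). Of 20 genes of the DN stage and Notch signaling, 3 rose (Ccr9, Cd44 and Dtx1) and none fell (median 0.09).

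The placement of the libraries among induced stages shows how the SP groups stood to each other. Across 17416 genes, induced CD4 SP libraries had r of 0.949 to 0.954 with the mean of induced DN4, 0.948 to 0.953 with that of induced DP, and 0.903 to 0.908 with that of natural CD4 SP. For induced CD8 SP libraries these values were 0.974 to 0.978 with induced DN4, 0.941 to 0.944 with induced DP, and 0.936 to 0.939 with natural CD8 SP. Neither SP group was nearest to the natural group of its name. Induced CD4 SP libraries had 0.927 to 0.931 with the mean of natural CD8 SP and 0.9455 to 0.9517 with that of natural DN4. Induced CD8 SP libraries had 0.970 to 0.973 with natural DN4. The libraries share the laboratory, the protocol and genes of constant level, so the values describe rank only. Natural SP libraries were not placed in this way. Natural CD8 SP lay between natural DN4 and natural DP for Npm1 (2374 to 2662 FPKM, against 3470 to 3693 and 600 to 842 FPKM). Tcrg-C1 held the same place there (46.5 to 73.6 FPKM, against 209 to 237 and 0.821 to 13.7 FPKM). For Ccr7, natural CD8 SP (92.5 to 159.5 FPKM) lay above natural DN4 (6.38 to 8.915 FPKM). So it did for Il7r (39.2 to 67.2 against 19.2 to 25.6 FPKM). In induced CD4 SP, every library lay above every induced DP library for Zbtb7b, Trac, Ccr7 and Il7r. For Ccr7 every library also lay above induced DN4, and for Il7r library 1 (31.4 FPKM) lay within the range of induced DN4. In induced CD8 SP, Ccr7 and Il7r were low (1.53 to 7.62 and 6.92 to 7.77 FPKM), against 3.59 to 8.10 and 20.6 to 35.9 FPKM in induced DN4. Cd8a (288 to 334 FPKM) lay between induced DN4 (7.23 to 9.78 FPKM) and induced DP (743 to 878 FPKM). Whether these libraries hold cells of the CD8-bearing stage before DP was not tested.

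The contrast between the SP groups ran along the step between induced DN4 and induced DP, whose 4 and 3 libraries are on neither side of it but entered its shared estimate of spread. Of the 813 genes higher in induced CD4 SP, 666 (81.9%) had a higher mean in induced DP than in induced DN4, against 41.3% of all genes tested, with a median log2 difference of 0.90. Of the 499 genes lower in induced CD4 SP, 484 (97%) were lower in induced DP than in induced DN4, against 45.4% of all genes, with a median of -1.12. Across all genes the correlation of the contrast with the step was 0.46. The contrast also reached past both stages. For 419 of the 813 higher genes (51.5%) the mean of induced CD4 SP lay above both induced DN4 and induced DP, against 28.4% of all genes, and for 391 (48.1%) the mean of induced CD8 SP lay below both, against 22.7% of all genes. Of the 499 lower genes, 135 (27.1%) had induced CD4 SP below both stages, against 19.3% of all genes, and 185 (37.1%) had induced CD8 SP above both, against 25.6% of all genes. Since the members were chosen by the same libraries, these last counts describe and do not test.

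Single genes show both kinds. Npm1 had 3331 to 3470 FPKM in induced DN4 and 706 to 797 FPKM in induced DP, and Mcm6 423 to 469 and 122 to 154 FPKM, with both SP groups between these stages except that induced CD8 SP overlapped induced DN4 for Mcm6. Hspd1 had 157 to 180 FPKM in induced DN4 and 23 to 42.1 FPKM in induced DP. Against the step, Cd8a was higher in induced DP and lower in induced CD4 SP. Myo6, Ccr7 and Il7r were lower in induced DP (0.268 to 1.61, 0 to 3.84 and 0 to 0.18 FPKM) than in induced DN4 and were higher in induced CD4 SP than in induced CD8 SP. Induced CD4 SP overlapped induced DP for Txk, Il2rg and Satb1 (29.4 to 75.2, 335 to 409 and 936 to 1141 FPKM in induced DP). For Ccr9, induced DP lay above induced CD4 SP, at 324 to 353 FPKM. Fyn and Junb were lower in induced DP (40.8 to 56.3 and 29.8 to 39.4 FPKM) than in induced CD4 SP. The mean of induced CD4 SP lay above both stages for 419 of the 813 higher genes, as given above.

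**Figure D4:**
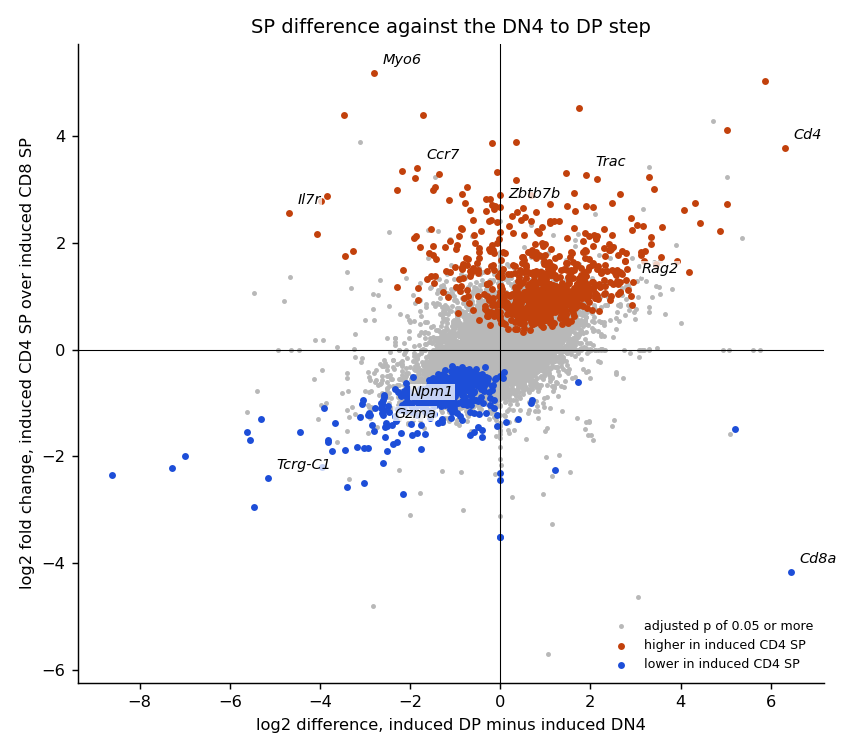
Log2 fold change of induced CD4 SP over induced CD8 SP (vertical axis) against the log2 difference of induced DP minus induced DN4 (horizontal axis) for each tested gene, both on the log2(FPKM + 1) scale. Of the blue points, lower in induced CD4 SP, 484 of 499 lie left of the vertical line, and of the orange points, higher there, 666 of 813 lie right of it, while Myo6, Ccr7, Il7r and Cd8a lie on the other side.

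The same contrast was made in natural thymocytes. Between natural CD4 SP and natural CD8 SP, 3948 genes differed (22.7% of those tested), 2162 of them higher (12.4%) and 1786 lower (10.3%) in natural CD4 SP. At equal totals the split was 1533 higher and 2253 lower, after quantile normalization 1945 and 2129, and with median ratios 1956 and 2052. When only the groups of the comparison entered the fit, 1723 genes passed in induced and 2055 in natural cells, and with the replicate block besides 1895 and 1799, so the order of the counts depended on the fit. The median size of a called log2 fold change was 0.96 in induced and 1.30 in natural cells. Of the 813 genes higher in induced CD4 SP, 502 were also higher in natural CD4 SP, which is 61.7% of the induced and 23.2% of the natural calls. Of the 499 lower genes, 236 were lower in natural CD4 SP as well, 47.3% of the induced and 13.2% of the natural calls. Opposite calls were made for 70 genes, of which 23 were cytosolic ribosomal protein genes. In natural cells 38 of those 75 genes were higher and 5 lower in CD4 SP (median 0.36, and 0.13 to 0.27 under the 3 other scalings).

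A test of the difference between the induced and the natural contrast passed for 1404 genes (8.06%), 740 higher (4.25%) and 664 lower (3.81%). At equal totals 1291 were higher and 373 lower, and the median over all genes moved to 0.12. Of the 1404 genes, 254 had an induced call and 1085 had a natural call but no induced call. Induced libraries had 5.36 to 8.42 FPKM of Xist, the RNA of the inactive X chromosome, and 0 to 0.244 FPKM of the Y-linked gene Ddx3y, while natural SP libraries had 0.0145 to 0.407 FPKM of Xist and 11.0 to 20.9 FPKM of Ddx3y. Both were looked at after values were seen, and the source and the sex of the animals cannot be told apart. The source also goes with transplantation, irradiation and the virus.

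Recombination genes were among those whose contrast was more positive in induced cells. Rag2 had 0 to 0.155 FPKM in natural CD4 SP and 20.4 to 35.5 FPKM in natural CD8 SP (difference 5.98 ± 0.54, adjusted p = 4.12e-13), and Rag1 1.02 to 9.22 and 27.6 to 38.9 FPKM (3.83 ± 0.41). Dntt had 19.5 to 30.2 FPKM and 463 to 504 FPKM in those groups (4.50 ± 0.21, adjusted p = 1.25e-25). For Dntt, every induced library (1015 to 1369 FPKM) was above these natural ranges. For Rag1 and Rag2, every induced CD4 SP library was above them, while induced CD8 SP (31.6 to 50.4 and 34.2 to 46.0 FPKM) overlapped natural CD8 SP. Ly6d had 3.40 to 59.7 FPKM in natural CD4 SP and 634 to 785 FPKM in natural CD8 SP (difference 5.03 ± 0.75). Its induced values were 866 to 1007 FPKM in induced CD4 SP and 1058 to 1546 FPKM in induced CD8 SP. Nt5dc2 had 150 to 232 FPKM and 244 to 337 FPKM in the induced groups, against 0 to 0.806 and 160 to 186 FPKM in the natural ones (6.52 ± 0.53), and the serine protease gene Prss57 40.4 to 65.5 and 69.1 to 83.1 FPKM, against 0 to 0.116 and 55.1 to 64.0 FPKM (5.40 ± 0.74).

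Gzma, which was higher still in the DN4 libraries of both sources than in natural CD8 SP, showed the same form. Natural CD4 SP libraries had 4.22, 0.905 and 16.3 FPKM of Gzma and natural CD8 SP libraries 846, 909 and 645 FPKM (difference of contrasts 5.71 ± 0.58, adjusted p = 2.23e-11). Natural CD8 SP overlapped induced CD8 SP, while induced CD4 SP (261 to 401 FPKM) lay far above natural CD4 SP. Chrna9 and Insl5 were higher in induced CD4 SP than in induced CD8 SP and lower in natural CD4 SP than in natural CD8 SP, with the induced Chrna9 values not past the test. Insl5 had 18.3, 12.0, 17.4 and 27.5 FPKM in induced CD4 SP, against 4.42, 2.86, 0 and 8.78 FPKM in induced CD8 SP (2.33 ± 0.47, adjusted p = 0.00033). It was listed at 0 in natural CD4 SP and had 2.98 to 16.6 FPKM in natural CD8 SP. Chrna9, a nicotinic receptor subunit, had 42.4 to 91.2 and 19.9 to 31.1 FPKM in the induced groups (adjusted p = 0.267), against 0 to 4.81 and 9.07 to 19.6 FPKM in the natural ones. Both genes were higher in DP libraries than in any of these SP groups. Insl5 had 36.0 to 75.3 FPKM in induced DP and 68.4 to 107 FPKM in natural DP. For Chrna9 these ranges were 169.6 to 213.1 and 172.5 to 264.8 FPKM.

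Proliferation genes differed between the sources as a group. In natural cells 27 of 28 were lower in CD4 SP and none higher (median -1.99), and for 22 of 28 the difference between the sources passed in the positive direction. Mcm6 had 68.0 to 84.2 FPKM in natural CD4 SP and 315 to 327 FPKM in natural CD8 SP (difference 1.31 ± 0.21, adjusted p = 3.94e-06), and Mki67 4.62 to 14.3 and 26.2 to 37.7 FPKM (difference 1.88 ± 0.39, adjusted p = 0.000502). Of the DP stage genes, 9 of 16 differed between sources, all in the positive direction. In natural cells 2 of these 16 were higher and 9 lower in CD4 SP (median -1.69).

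Genes whose contrast was more negative in induced cells included helper genes at lower levels in induced CD4 SP than in natural CD4 SP. Pseudogenes made up 149 of these 664 genes (22.4%), against 12 of the 740 with a more positive contrast (1.62%) and 7.58% of all genes tested. Cd40lg had 37.2 to 58.8 FPKM in natural CD4 SP and 0 to 0.225 FPKM in natural CD8 SP (difference -2.60 ± 0.51, adjusted p = 0.000224, and 0.129 with a pseudocount of 0.1). Tnfrsf4 had 90.2 to 259 FPKM and 2.83 to 6.00 FPKM there (-2.61 ± 0.86, adjusted p = 0.046), a difference that was lost under several alternatives. Foxp3 differed by -2.88 ± 0.31 (adjusted p = 1.13e-10). Akr1c18, a reductase of progesterone, had 0.888 to 24.9 FPKM in induced CD4 SP and 28.5 to 72.2 FPKM in natural CD4 SP, and was listed at 0 in all induced and natural CD8 SP libraries. Ly6a (Sca-1) had 29.4, 30.2, 34.1 and 29.9 FPKM in induced CD4 SP, against 76.1, 73.1, 55.6 and 56.0 FPKM in induced CD8 SP (adjusted p = 0.165), and 303 to 400 against 26.7 to 43.9 FPKM in natural CD4 SP and natural CD8 SP (difference -4.23 ± 0.67, adjusted p = 4.93e-06).

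Of the other genes with a more negative contrast, Trmt61a and Pdlim4 fell in induced CD4 SP. Trmt61a, a tRNA methyltransferase, had 0.0979 to 4.38 FPKM in induced CD4 SP and 4.67 to 10.2 FPKM in induced CD8 SP (adjusted p = 0.00466, and 0.0633 without induced CD4 SP library 1). Pdlim4 had 4.38 to 10.2 FPKM against 23.1 to 26.6 FPKM (adjusted p = 0.0471), and its call was lost in each of the 8 fits that left out 1 library (adjusted p = 0.0524 to 0.178). Ifi30, a lysosomal thiol reductase, had 14.9 to 23 FPKM against 26.2 to 55.4 FPKM (adjusted p = 0.254), and Lair1, an inhibitory collagen receptor, 1.05 to 3.87 FPKM against 5.36 to 7.33 FPKM (adjusted p = 0.144). In natural cells all 4 genes had a positive log2 fold change of CD4 SP over CD8 SP, which passed for Pdlim4 (1.90), Ifi30 (1.80) and Lair1 (1.56) but not for Trmt61a (0.95, adjusted p = 0.137).

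**Figure D5:**
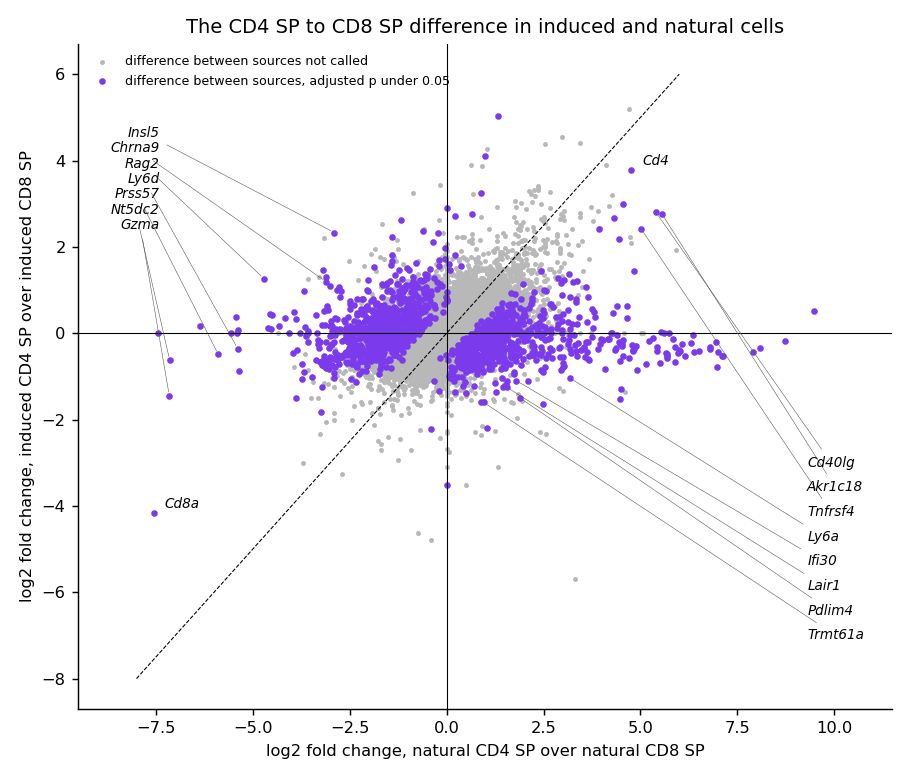
Log2 fold change of induced CD4 SP over induced CD8 SP (vertical axis) against that of natural CD4 SP over natural CD8 SP (horizontal axis) for each tested gene, with the line of equal values dashed. Purple marks the 1404 genes whose contrasts differed at an adjusted p under 0.05, and many of them lie near 0 on the vertical axis, since 1085 had a natural but no induced call.

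Markers of other cell types were low or did not separate the groups, apart from the following. Igkc, the kappa light chain constant gene, had 193, 108, 3.12 and 2.07 FPKM in induced CD4 SP, against 0, 4.71, 0 and 0 FPKM in induced CD8 SP (log2 fold change 3.88 ± 1.10, adjusted p = 0.0162). Libraries 1 and 2 carried the difference: without both of them the Igkc call was lost (adjusted p = 0.853), and without library 1 or library 2 alone it was 0.15 and 0.103. Leaving out induced CD8 SP library 1, 3 or 4 also moved it past the threshold (adjusted p = 0.0515 to 0.0532). Of the B lineage list, 3 of 22 tested genes rose and 1 fell, against 4.67% higher and 2.87% lower over all genes. Its summed levels were 894 to 1182 FPKM in induced CD4 SP and 724 to 835 FPKM in induced CD8 SP. Its defining genes Ms4a1, Pax5 and Ebf1 were listed at 0 in all 8 libraries. Ighm made up most of that sum, with 693 to 744 FPKM in induced CD4 SP and 628 to 707 FPKM in induced CD8 SP (adjusted p = 1). Natural CD4 SP libraries had 180 to 213 FPKM of Ighm and natural CD8 SP libraries 434 to 504 FPKM. Young T cells can transcribe Ighm without a variable segment. The values do not tell such RNA from that of a rearranged gene. Cd37, a tetraspanin also of T cells, rose (125 to 188 against 55.8 to 70.3 FPKM, adjusted p = 3.02e-06). Cd79b (29.5 to 90.3 against 16.5 to 32.9 FPKM, adjusted p = 0.0308) lost its call without any one of induced CD4 SP libraries 1 and 4 or induced CD8 SP libraries 1, 3 and 4 (adjusted p = 0.0555 to 0.196). Blk (0 to 2.04 against 2.72 to 3.57 FPKM, adjusted p = 0.0221) lost its call without induced CD4 SP library 1 or induced CD8 SP library 1, 2 or 3 (adjusted p = 0.0502 to 0.207).

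Summed myeloid markers reached 28.8 to 70.1 FPKM in induced CD4 SP and 31.4 to 43.8 FPKM in induced CD8 SP, with 0 of 20 genes past the test and 14 listed at 0 in all 8 libraries. Dendritic markers summed to 209 to 251 FPKM and 71.9 to 96.6 FPKM, and the 1 of 15 that passed was Ccr9, a thymocyte gene. Natural killer markers summed to 41.3 to 63.1 FPKM and 8.37 to 21.9 FPKM, and Id2 accounted for 38.4 to 55.3 FPKM of the sum in induced CD4 SP. Of these markers 6 of 16 were listed at 0 in all 8 libraries. Erythroid markers summed to 37.6 to 58.6 FPKM and 80.3 to 105 FPKM, a sum led by the transferrin receptor Tfrc. Tfrc had 36.0 to 52.4 FPKM in induced CD4 SP and 79.4 to 105 FPKM in induced CD8 SP (adjusted p = 0.0363), and lost its call in 7 of the 8 fits that left out 1 library (adjusted p = 0.0517 to 0.129; it held only without induced CD4 SP library 3). Thymic stroma markers summed to 16.0 to 35.1 FPKM and 9.25 to 19.1 FPKM, with 1 of 8 tested higher, Pecam1. Of stem and progenitor genes 1 of 16 rose, Slamf1. The part of other cells in the results was not tested.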

How the data were processed

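The authors deposited 1 table of FPKM with a row per Ensembl gene and a column per library; per the submitters' processing notes it was made with bcl2fastq, TopHat, Cufflinks 2.2.1 and Cuffnorm on the mouse build NCBIM37. Parameters, annotation and the library normalization of Cuffnorm are not given in the sources used here, and per the labels' protocols the Nextera XT kit was used, which does not mark strand. Read counts were not used here, so the depth rests on the steps between low values: 73.1% to 80.6% of those in the induced libraries lay within 0.2 of a whole number of fragments. Symbols came from GENCODE vM21 for 32916 of 37980 gene IDs (86.7%).

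The analysis used log2(FPKM + 1) and the 17416 genes that reached 1 FPKM in 2 or more libraries. With limma 3.58.1 in R 4.3.3 (trend and robust settings, two-sided, 51 residual degrees of freedom), 1 mean per group was fitted to all 75 distinct libraries of 24 groups, so that groups share 1 estimate of spread. Contrasts were induced CD4 SP minus induced CD8 SP, natural CD4 SP minus natural CD8 SP, and their difference. The fit was tested on simulated data. Python 3.11.15, numpy 2.4.6, pandas 2.3.3 and matplotlib 3.10.9 did the rest.

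Named genes are Hoxb5, members of the lists described, the 15 highest and 15 lowest of the induced contrast and the 8 highest and 8 lowest of the difference, among genes past an adjusted p of 0.05 whose higher group averaged 5 FPKM or more, with induced libraries that do not overlap, without predicted genes, pseudogenes, small RNAs, ribosomal copies and receptor segments. A few genes that the rule or the lists hold are not reported here. The comparison, the lists and the examples were chosen with earlier results of these data known. Alternatives were a pseudocount of 0.1, no filter, equal totals, quantile normalization, median ratios, library weights, a replicate block, only the groups compared, each library left out, and, added after values were seen, induced CD4 SP libraries 1 and 2 both left out.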

Additional observations from a re-analysis of the deposited data

Results flagged for a closer look

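Some libraries stood apart from the other 3 of their group. In induced CD4 SP, library 1 was above the others in Tspan4 (6.23 FPKM), Foxp3 (1.24 FPKM) and Cst7 (0.248 FPKM), and library 2 in Itgae (0.491 FPKM). Library 3 was above the others in Itm2a (408 FPKM) and Ly6a (34.1 FPKM) and below them in Smyd2 (10.2 FPKM). Library 4 was above them in Gimap4 (88.3 FPKM), Btla (18.9 FPKM), Ly6c2 (1.77 FPKM) and Clec12a (0.991 FPKM). In induced CD8 SP, library 1 was above the others in Tgfbr2 (4.87 FPKM) and below them in Itgae (0.331 FPKM). Library 2 was above them in Igkc (4.71 FPKM), Pdlim4 (26.6 FPKM) and Foxp3 (0.101 FPKM), library 3 in Cd40lg (0.783 FPKM), and library 4 in Hspd1 (145 FPKM) and Klrd1 (4.73 FPKM). A gap was taken as large by Dixon's critical value, which chance passes in about 1 in 20 groups, and 126 genes were looked at in both groups. Where the other libraries of the group were listed at 0, as for Foxp3, Cst7, Cd40lg and Igkc, any value above 0 passes.

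The contrast of CD4 SP over CD8 SP differed between induced and natural cells for 40 of the genes followed, by the limma test of the difference of the log2 fold changes. Among genes of the DP stage and recombination, the difference was 5.98 for Rag2, 4.50 for Dntt, 3.83 for Rag1 and 1.04 for Rmnd5a. Proliferation genes had 1.88 (Mki67), 1.42 (Mcm7), 1.31 (Mcm6), 1.20 (Mcm5) and 0.99 (Mcm2). The CD8 and cytotoxic genes had 5.71 for Gzma, 3.38 for Cd8a and 2.40 for Cd8b1. Of the genes named for this difference, the values were 6.52 for Nt5dc2, 5.40 for Prss57, 5.23 for Insl5, 5.03 for Ly6d and 4.29 for Chrna9. Cd79b had 2.14, Ifngr1 1.94, Gfra1 1.42, Ighm 1.31, Trbc1 0.98 and Hoxb5 0.76.

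In the other direction, helper and regulatory genes had -2.88 for Foxp3, -2.61 for Tnfrsf4, -2.60 for Cd40lg, -2.07 for Il6ra, -1.64 for Zbtb7b and -1.56 for Ccr8. Cd4 had -0.99, though its mean was 74.1 FPKM in induced and 63.4 FPKM in natural CD4 SP. In induced and natural CD8 SP the Cd4 mean was 4.72 and 1.47 FPKM. The limma calls of Cd4 and Ccr8 were lost with a pseudocount of 0.1 (adjusted p = 0.326 and 0.288), at equal totals (0.218 and 0.103) and under further alternatives. Ly6a had -4.23, Pdlim4 -3.41, Ifi30 -2.90, Lair1 -2.81, Akr1c18 -2.80 and Trmt61a -2.55. The differences were -2.75 for mt-Nd3, -1.14 for mt-Nd1, -1.37 for Gas5 and -0.72 for H2-K1. Where a group was listed at 0, as for Hoxb5, Zbtb7b, Il6ra, Akr1c18, Insl5 and Gfra1, the size depends on the pseudocount.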

How the results depend on the processing

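The count of 1312 genes between induced CD4 SP and induced CD8 SP was 2407 with library weights and 859 without induced CD4 SP libraries 1 and 2, of which 742 were among the 1312. Leaving out 1 library gave 1025 to 1226 genes. The other alternatives gave 1086 (quantile normalization) to 1895 (replicate block with only the groups compared). For natural cells the count of 3948 was 2055 with only the groups compared and 1799 with the replicate block besides, and 3277 to 3708 without 1 library. The difference between sources passed for 981 to 1664 genes under the alternatives, 1141 to 1545 of them without 1 library.

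Of 103 followed genes called in the induced contrast, 70 passed under every alternative and 33 lost the call at least once. Of 40 called in the difference between sources, 20 passed under every alternative and 20 did not. No called value changed sign under an alternative that was run. Between induced CD4 SP and induced CD8 SP, libraries of the same number had correlations of their deviations of 0.017 to 0.072. Libraries of different numbers had -0.074 to 0.033. These values were small, so the numbers were not taken as pairs, and the replicate block gave 1369 genes. Those of the same number were all positive, and whether the numbers mark pairs is not settled by them.

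With 4 libraries of about 5 fragments per FPKM and kilobase, genes near 1 FPKM rest on few fragments, and the deposited values give no count errors. Fold changes of low genes depend on the pseudocount. The cause of each changed count was not tested.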

Other observations

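Beta chain V segments were diverse in both induced groups. At least 1 FPKM was reached by 18 of 20 segments in each induced CD4 SP library and by 17 or 18 in each induced CD8 SP library. Their summed level was 5310, 5553, 6157 and 6254 FPKM in induced CD4 SP, against 4384, 3759, 4060 and 5128 FPKM in induced CD8 SP, and 1415 to 3411 FPKM in the natural SP libraries. The leading segment held 14.6% to 16.0% of the sum in induced CD4 SP and 11.4% to 16.2% in induced CD8 SP.

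Alpha chain V segments at 1 FPKM or more numbered 9, 11, 10 and 14 of 33 in induced CD4 SP, against 10, 5, 8 and 5 in induced CD8 SP. The segment Trav15-2-dv6-2, which can also join the delta chain, led in induced CD8 SP libraries 2, 3 and 4, with 65.0%, 38.8% and 62.0% of the alpha V sum. In induced CD4 SP the leading segments were Trav13-1 in libraries 1 and 3, Trav19 in library 2 and Trav21-dv12 in library 4. Segments were looked at after values were seen, and reads of similar segments can be shared between them.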
